A study of Mus musculus with 24 samples.

Results

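Transcripts of 9 oxidant enzyme genes were followed in mouse distal colon. The 9 genes were taken by name: Nos2, Duox2, Duoxa2, Nox1, Noxo1, Noxa1, Cybb, Ncf1 and Ncf4. They are 9 of 43280 gene symbols counted, and all 9 passed the filter on low counts, as did 14773 genes in all. The 24 libraries form 6 groups of 4, all from female SCID mice of the strain C.B-17/Icr-scid/scid, bought at 7 weeks of age, which lack mature T and B cells. Normal mice were untreated. Each mouse of the other 5 groups received 200000 CD4+ T cells into a vein on day 0, isolated from BALB/c spleen cells after 3 days with 4 μg/mL Concanavalin A and 10 ng/mL IL-2, which leads to colitis. The design text says that these mice were allotted to the 5 arms on day 17 after scoring of stool consistency. Vehicle mice were given 0.5% methylcellulose. MEKi 0.3 and MEKi 1 mice took enteric microparticles with a MEK inhibitor by mouth, 0.3 or 1 mg/kg daily, from day 17 to day 27. MEK is the kinase that activates ERK. Isotype and anti-TNF mice were injected into the peritoneum with 0.1 mg of control antibody or of antibody against TNFa every 4 days from day 17. Colons of these 5 groups were taken on day 28, and no day is given here for Normal. Nothing in the labels ties each library to its own animal, and p-values here reflect only how far these libraries spread, which may be technical.

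Nitric oxide, superoxide and hydrogen peroxide are made on purpose by a small set of enzymes. Inducible nitric oxide synthase, the product of Nos2, makes nitric oxide from arginine. DUOX2 sits in the apical membrane of gut epithelium and releases hydrogen peroxide toward the lumen once DUOXA2 has carried it out of the endoplasmic reticulum. NOX1 is the superoxide-producing oxidase of colon epithelium and works with the organizer NOXO1 and the activator NOXA1. Cybb encodes the catalytic chain of the phagocyte NADPH oxidase, and Ncf1 and Ncf4 encode soluble subunits that join it at the membrane. The counts come from whole tissue, so they do not show which cells hold a transcript, and fewer cells of a type cannot be told apart from less RNA per cell.

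The naming of the libraries bears on every result. A table of the whole series repeats the counts of the 24 files, but for 16 of its 24 columns the sample named is not the one whose file holds those counts. By the files, Normal libraries held 36 to 70 counts of 7 T cell genes and Vehicle libraries 455 to 760. Under the table's names these ranges became 36 to 552 and 65 to 556. Groups here follow the files' own samples. The same counts do not settle the antibody libraries: by the files Isotype libraries held 578 to 1056 T cell counts and anti-TNF libraries 341 to 688, and under the table's names 677 to 1056 and 341 to 967. Library totals ran from 3052940 to 10587555 counts and were highest in both antibody groups. All 10 colon epithelium markers were detected in every group, with a summed level of 15880.2 ± 2115 CPM (CPM are counts scaled to a library total of 1000000; mean ± SD, n = 4) in Normal and 16597 ± 2496 CPM in Vehicle. Smooth muscle markers summed to 4457 ± 498 CPM in Normal and 1401 ± 539 CPM in Vehicle. All 4 were lower in Vehicle by edgeR's adjusted p, where 46.4% of all genes changed, and in each other comparison with Normal. Pancreas acinar markers summed to 6353 CPM in Vehicle replicate 4 and 4841 CPM in Isotype replicate 1, against 13.6 to 441 CPM in the other 22 libraries.

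In GENCODE M21 on mm10, Nos2 lies on chromosome 11, 78920787 to 78960254, plus strand. Duox2 (chromosome 2, 122279247 to 122298449, minus strand) and Duoxa2 (chromosome 2, 122298900 to 122302885, plus strand) point away from each other with 450 bases between their starts. Nox1 lies on chromosome X, 134086421 to 134221956, minus strand, Noxo1 on chromosome 17, 24696234 to 24700529, plus strand and Noxa1 on chromosome 2, 25085667 to 25095149, minus strand. Cybb lies on chromosome X, 9435252 to 9487771, minus strand, Ncf1 on chromosome 5, 134220053 to 134229625, minus strand and Ncf4 on chromosome 15, 78244801 to 78262580, plus strand. Noxo1 shares 2581 bases with Tbl3 and Ncf1 shares 4303 bases with Gtf2ird2, each on the opposite strand. Nox1 shares 13034 bases with Xkrx on its own strand and 20528 with Arl13a on the other. Whether counting used strand is not given in the sources used here, so reads in shared bases cannot be assigned with certainty.

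Promoter sequence was available from RefSeq (GRCm38.p6) for 7 of the 9 genes, and 4 are shown because the counts set these genes side by side: Duoxa2 lies in the divergent pair, Nox1 stands for the epithelial oxidase, and Cybb and Ncf1 moved most alike. Each run is the 250 bases before the RefSeq start, 5′ to 3′ on the strand of the gene. Capitals mark matches, on either strand, to 5 motifs: the NF-kB motif GGGNNNNNCC, the STAT motif TTCNNNGAA, the IRF motif GAAANNGAAA, the PU.1 motif GAGGAA and the CDX motif TTTATG. Overlapping matches run together in capitals.
Duoxa2, chr2:122298650-122298899, plus strand: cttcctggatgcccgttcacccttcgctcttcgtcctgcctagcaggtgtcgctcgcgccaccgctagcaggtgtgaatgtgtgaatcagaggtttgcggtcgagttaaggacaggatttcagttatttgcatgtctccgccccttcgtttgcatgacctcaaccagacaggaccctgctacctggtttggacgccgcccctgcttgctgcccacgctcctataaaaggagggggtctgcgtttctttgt
Nox1, chrX:134111855-134112104, minus strand: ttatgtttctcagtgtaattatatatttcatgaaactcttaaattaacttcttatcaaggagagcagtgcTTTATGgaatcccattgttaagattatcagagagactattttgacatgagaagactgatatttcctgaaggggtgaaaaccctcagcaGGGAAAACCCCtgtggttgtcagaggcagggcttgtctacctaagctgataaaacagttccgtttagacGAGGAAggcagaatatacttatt
Cybb, chrX:9469325-9469574, minus strand: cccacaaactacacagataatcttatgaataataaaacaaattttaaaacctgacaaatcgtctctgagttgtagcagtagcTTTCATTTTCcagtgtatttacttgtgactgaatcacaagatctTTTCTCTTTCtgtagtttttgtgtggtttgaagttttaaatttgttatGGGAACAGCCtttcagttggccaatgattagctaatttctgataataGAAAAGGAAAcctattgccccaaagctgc
Ncf1, chr5:134229626-134229875, minus strand: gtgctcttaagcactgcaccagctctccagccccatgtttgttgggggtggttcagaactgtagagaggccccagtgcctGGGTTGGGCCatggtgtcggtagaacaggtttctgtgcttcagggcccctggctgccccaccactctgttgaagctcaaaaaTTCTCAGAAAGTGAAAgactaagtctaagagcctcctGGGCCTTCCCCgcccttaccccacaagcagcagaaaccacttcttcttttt
The IRF motif matched 3 times before Cybb and 1 time before Ncf1, and no other of the 7 promoters held it. Of 32851 promoters searched over the same length, 2.98% held this motif. Ncf1 also held the STAT motif (7.02% of all promoters), which overlaps its IRF match. The loose NF-kB motif occurred in 45.8% of all promoters and in those of Nox1, Noxo1, Noxa1, Cybb and Ncf1. The Nox1 run also holds PU.1 (23.3% of all promoters) and CDX (10.8%) matches. The Duox2 and Duoxa2 windows held none of the 5. For Cybb and Nox1 the RefSeq start lies inside the GENCODE gene, whose longest model begins further upstream. These matches describe letters only.

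Vehicle was compared with Normal to ask what differed after T cell transfer in mice without drug. Vehicle mice were also given methylcellulose, so transfer and dosing cannot be told apart here. All 9 genes rose, by fitted log2 fold changes of 0.95 to 5.80, while 23.1% of all tested genes rose and 46.4% changed in either direction. The median log2 fold change was 2.41 over the 9 genes and 0.00 over all genes tested. In all 9 the lowest Vehicle library lay above the highest Normal library, as for 23.3% of all genes. With all libraries named as in the table of the whole series, 0 of the 9 genes were called in any of the 5 comparisons with Normal. In Vehicle against Normal, Nos2 was then at 1.10 and 0 of all genes were called.

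Nos2 stood at 23.8, 17.7, 18.5 and 11.1 CPM in Normal replicates 1 to 4. In Vehicle it stood at 1110.4, 1239, 845 and 869 CPM. The rise was 55.7-fold, a log2 fold change of 5.80 ± 0.59 (edgeR, SE), with an adjusted p of 5.06e-07. It was the largest fitted change among the 9 genes and rested on 54 to 110 counts in each Normal library.

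Duox2, the epithelial peroxide-producing enzyme, stood at 263, 232, 301 and 219 CPM in Normal and 610.4, 792, 677 and 677 CPM in Vehicle. It rose 2.65-fold (log2 1.40 ± 0.16, edgeR adjusted p = 6.61e-07). Its maturation factor Duoxa2 moved from 27.7, 37.7, 41.4 and 31.7 CPM to 239, 250.0, 254 and 269.6 CPM, a 7.11-fold rise (log2 2.83 ± 0.28, edgeR adjusted p = 1.4e-07). The groups did not overlap for either gene, and Vehicle spread little for Duoxa2, 253 ± 12.7 CPM (mean ± SD, n = 4).

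Nox1, the catalytic subunit of the epithelial superoxide enzyme, read 26.4, 29.2, 26.9 and 18.7 CPM in Normal and 133, 128, 165 and 124 CPM in Vehicle, 5.32-fold higher (log2 2.41 ± 0.30, edgeR adjusted p = 3.5e-06). Its organizer Noxo1 read 105, 87.5, 98.5 and 78.4 CPM and 191, 228, 213 and 170.4 CPM, 2.12-fold higher (edgeR adjusted p = 1.08e-05). Its activator Noxa1 read 54.3, 51.8, 64 and 41.8 CPM and 88.1, 95.6, 137 and 97.1 CPM, 1.93-fold higher (edgeR adjusted p = 0.0013). The partner genes Noxo1 and Noxa1 had the smallest changes of the 9.

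Among the phagocyte subunits, Cybb read 5.41, 12.8, 7.47 and 10.5 CPM in Normal and 82.5, 74.2, 53.6 and 116 CPM in Vehicle, 8.85-fold higher (log2 3.15 ± 0.43, edgeR adjusted p = 1.38e-05). Ncf1, the organizer subunit, read 8.23, 1.64, 6.91 and 7.4 CPM and 34.8, 30, 19.7 and 47.8 CPM. Normal replicate 2 held only 5 Ncf1 counts, so the Normal level of this gene is the least precise. Ncf4, a regulatory subunit, read 10.8, 10.8, 10.5 and 6.79 CPM and 94.3, 126, 102 and 108 CPM and had the highest fitted change after Nos2, 3.44 ± 0.36 on the log2 scale (edgeR adjusted p = 4.65e-07). Monocyte and macrophage markers (11 of 12 listed were in the files, all 11 detected in each group) summed to 698 to 764 CPM in Normal and 2978 to 4777 CPM in Vehicle, and 10 of 11 rose. Neutrophil markers summed to 229.6 to 445 CPM in Normal, with Cxcr2 and Mmp8 at 0 counts, and 790.5 to 1439.8 CPM in Vehicle. Ly6g gave most of the Normal sum, so the sum understates the change of the other markers. Of 9 neutrophil markers tested 8 rose, with a median log2 fold change of 5.30, where 23.1% of all genes rose. The part of these cells in the rises of Cybb, Ncf1 and Ncf4 was not tested.

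**Figure D1:**
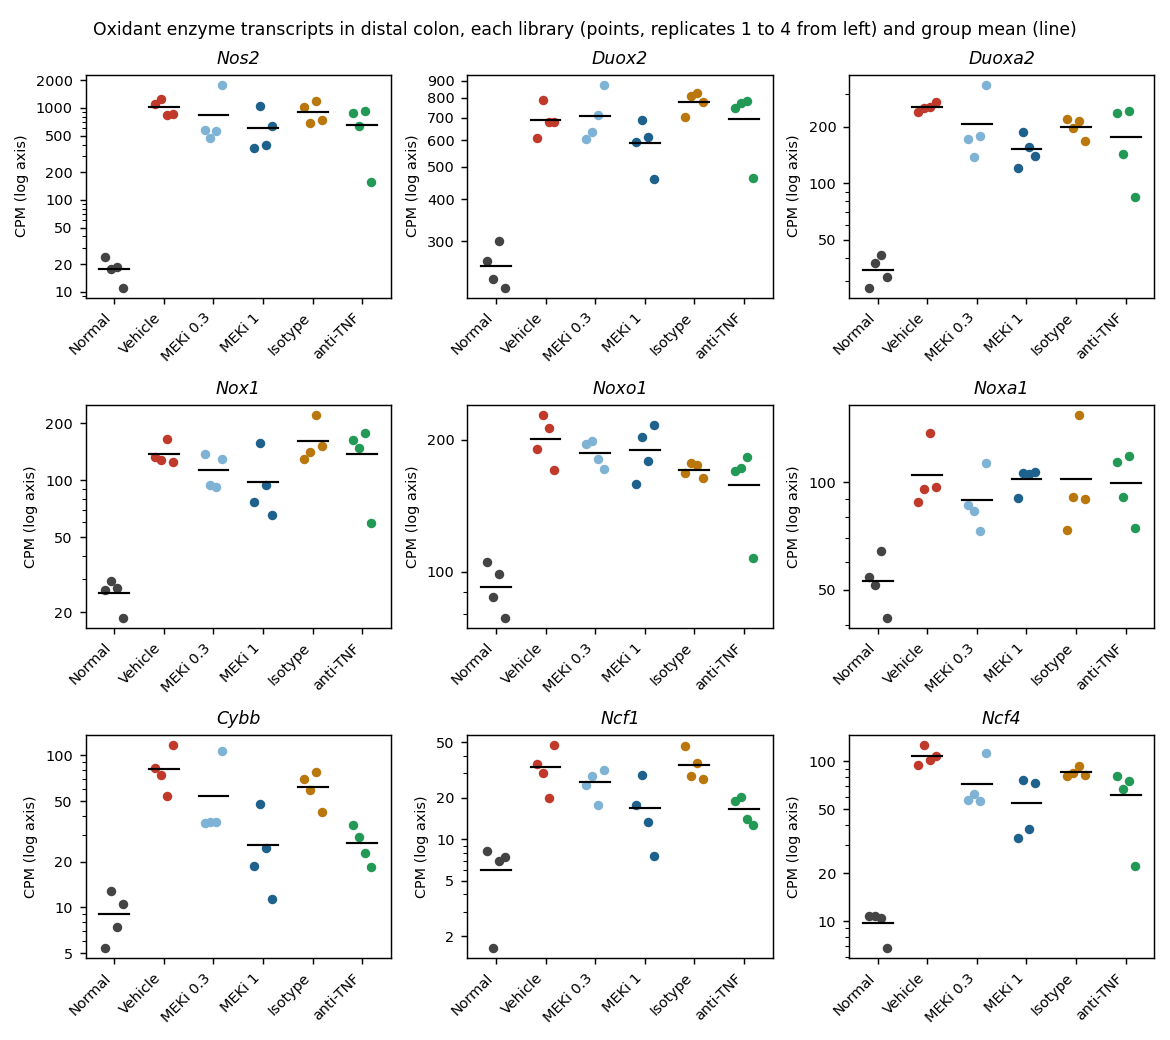
CPM (log axis) of the 9 genes in each of the 24 libraries, by group, with 1 panel per gene; points are libraries in replicate order and lines are group means of 4. In every panel the 4 Normal points lie below the Vehicle points, and anti-TNF replicate 4 is the lowest point of its group.

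The control antibody arm gave the same 9 calls. Isotype against Normal, which shares the Normal libraries with the comparison above, had all 9 genes higher with no overlap, where 20.9% of all genes rose and 20.3% lay higher without overlap. Log2 fold changes were 5.65 ± 0.59 for Nos2, 3.10 ± 0.36 for Ncf4, 2.76 ± 0.43 for Cybb and 2.65 ± 0.30 for Nox1 (edgeR adjusted p at most 5.72e-05 for these). The smallest was Noxo1 at 0.85 ± 0.15 (edgeR adjusted p = 0.00017). Between both control arms no gene of the 9 differed by edgeR (0 called, 0 at an unadjusted p under 0.05 and 0 by DESeq2), while 2.99% of all genes did. Duoxa2 and Ncf4 lay lower in every Isotype library than in every Vehicle library, as did 6.44% of all genes. For Duoxa2 the Isotype libraries read 221, 198, 214 and 168 CPM, a log2 difference of -0.34 ± 0.26 (edgeR adjusted p = 0.539).

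Levels of different genes are compared per kilobase of the longest GENCODE transcript. On that scale Duox2 (41.5 ± 5.96 CPM per kb) and Noxo1 (41.3 ± 5.27) led in Normal colon, followed by Noxa1 (32.8 ± 5.66) and Duoxa2 (21.7 ± 3.84). Nos2 (4.24 ± 1.24), Ncf1 (2.1 ± 1.04) and Cybb (1.9 ± 0.684) were lowest. In Vehicle, Nos2 was first at 242 ± 45.6 CPM per kb, ahead of Duoxa2 at 159 ± 7.99 and Duox2 at 113 ± 12.3. Ncf4 reached 73.7 ± 9.3 CPM per kb there against 17.2 ± 5.51 for Cybb, whose product it joins. The order depends on the length used. With the median transcript length Noxo1 led in Normal at 128 CPM per kb, ahead of Duox2 at 44.1, and Cybb (11.4) lay above Nos2 (5.18) and Ncf1 (4.04). In Vehicle Nos2 stayed first at 296 CPM per kb, Noxo1 came next at 277, and Ncf4 (150.2) and Cybb (103) lay closer together. Across the 6 groups, Vehicle had the highest mean CPM of Nos2, Duoxa2, Noxo1, Noxa1, Cybb and Ncf4, and Isotype that of Duox2, Nox1 and Ncf1. Neighbouring groups in the order of means overlapped for every gene among the 5 T cell groups, except Vehicle over Isotype for Ncf4 and MEKi 0.3 over anti-TNF for Cybb.

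The higher inhibitor dose was set against Vehicle. Inhibitor mice are described with enteric microparticles and Vehicle mice with methylcellulose, so inhibitor and carrier cannot be told apart at either dose. By edgeR's adjusted p Cybb fell and the other 8 genes were not called, while 4.51% of all genes fell and 10.6% changed. At an unadjusted p under 0.05 there were 4 of the 9 (Duoxa2, Cybb, Ncf1 and Ncf4) and 4485 of all genes, and DESeq2 called 3 of the 9 and 2234 of all. The count of 1565 genes behind these shares turned on single libraries. Leaving out MEKi 1 replicate 1, 2 or 3 gave 43, 2369 and 220 genes, and leaving out Vehicle replicate 1, 2 or 4 gave 324, 812 and 128. The median log2 fold change was -0.69 over the 9 genes and 0.00 over all genes tested. Cybb read 18.7, 47.5, 24.7 and 11.3 CPM in MEKi 1 replicates 1 to 4, each below every Vehicle library. The log2 fold change was -1.63 ± 0.39, a level 3.09-fold lower (edgeR adjusted p = 0.0197). This call was lost when any of 4 libraries was left out: Vehicle replicate 1 (adjusted p = 0.0502) or 4 (0.0792), or MEKi 1 replicate 1 (0.0836) or 3 (0.0645), all by edgeR. Vehicle replicate 4 is also the library with 6353 CPM of pancreas acinar markers. It had the highest Cybb (116 CPM) and monocyte and macrophage sum (4777 CPM) of its group, and what links these was not tested. With the libraries named as in the table of the whole series the Cybb difference was 0.38 (edgeR adjusted p = 0.838). Monocyte and macrophage markers summed to 793 to 2627 CPM in MEKi 1, all below Vehicle, and 6 of 11 tested fell, with 0 higher. Their sum in Isotype, without inhibitor, was 1989.5 to 2622 CPM, also below every Vehicle library, with 0 of 11 called against Vehicle. Neutrophil markers summed to 221 to 459 CPM in MEKi 1 and 6 of 9 tested fell, and 5 of 7 T cell markers fell. Ly6g, not called in this comparison, gave most of the neutrophil sum in MEKi 1 (240.0 CPM) and Normal (312 CPM). S100a8 stood at 33.2 CPM in MEKi 1 and 0.21 CPM in Normal. The part of these cells in the Cybb fall was not tested. The order of the MEKi 1 libraries was the same for Cybb, the monocyte and macrophage sum and the T cell sum: replicates 2, 3, 1 and 4 from high to low.

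The other phagocyte subunits and Duoxa2 gave differences that edgeR did not call. Ncf4 read 33.1, 75.9, 37.8 and 73.1 CPM, all below Vehicle, with a log2 difference of -0.92 ± 0.32 (edgeR adjusted p = 0.0623). Ncf1 read 17.6, 29.1, 13.3 and 7.56 CPM and overlapped Vehicle, with -0.92 ± 0.33 (edgeR adjusted p = 0.0691). DESeq2 called both, with adjusted p = 0.0307 for Ncf4 and 0.0385 for Ncf1. Duoxa2 read 121, 188, 157 and 139.8 CPM, again below every Vehicle library, with -0.70 ± 0.26 (edgeR adjusted p = 0.0779). A fit of only these groups gave Duoxa2 an adjusted p of 0.00896 by edgeR and Ncf4 0.0376. The count of genes lying below Vehicle without overlap was 3 of 9, where 10.3% of all genes did so. Of these, Duoxa2 and Ncf4 also lay below every Vehicle library in Isotype, as did 6.44% of all genes, and Cybb did not.

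The remaining 5 genes overlapped Vehicle. Nos2 in MEKi 1 read 362, 1038, 399.5 and 636 CPM, so replicate 2 reached the Vehicle range and replicates 1, 3 and 4 lay below it. Its log2 difference was -0.69 ± 0.47 (edgeR adjusted p = 0.328). Nox1 read 76.6, 157, 94.1 and 65.5 CPM (-0.45 ± 0.28), again with replicate 2 the highest. Duox2 differed by -0.19 ± 0.16, Noxo1 by -0.04 ± 0.15 and Noxa1 by 0.01 ± 0.21 on the log2 scale, and none of the 3 passed the test. MEKi 1 replicate 2 was the highest library of its group for 7 of the 9 genes, and its surface colonocyte markers summed to 1932 CPM against 4511 to 5197 CPM in the other 3. Without it 3 genes were called by edgeR: Cybb at -2.09 (adjusted p = 0.005), Ncf1 at -1.29 (0.017) and Ncf4 at -1.09 (0.0421).

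The lower dose gave no call. In MEKi 0.3 against Vehicle, 0 of the 9 genes passed with edgeR, 0 had an unadjusted p under 0.05 and DESeq2 called 0. Among all genes 1 passed (0.00677%), 2639 had an unadjusted p under 0.05 and DESeq2 called 92. In this comparison 4 of 4 same-numbered pairs passed the check given under processing, which does not settle whether the libraries are paired. A block on replicate numbers in a fit of these groups called 405 genes, none of the 9. Cybb stood apart by replicate: it read 36.1, 36.7, 36.5 and 106 CPM, with replicates 1 to 3 below every Vehicle library and replicate 4 inside their range. Nos2 read 572, 470.4, 557 and 1788 CPM, with replicate 4 above every Vehicle library. Ncf4 read 57.5, 62.5, 56.7 and 113 CPM and Duoxa2 172, 138, 179 and 335 CPM, both highest in replicate 4. This library was the highest of its group for 7 of the 9 genes. It also held the most monocyte and macrophage (3478 CPM) and neutrophil (915 CPM) marker counts of the 4 and the fewest surface colonocyte (2178 CPM) ones. Without it Cybb was called lower by edgeR at -1.13 (adjusted p = 0.0498), among 1130 genes called in all. Between both doses 0 of the 9 genes differed by edgeR or DESeq2, 1 (Cybb, -1.04 ± 0.39) had an unadjusted p under 0.05, as did 641 of all genes, of which 0 were called by edgeR. DESeq2 called 2 of all genes.

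The antibody against TNFa was compared with the control antibody. By edgeR 0 of the 9 genes passed, 2 had an unadjusted p under 0.05 (Cybb and Ncf1) and DESeq2 called 0, while 3 of all genes passed (0.0203%), 1653 had an unadjusted p under 0.05 and DESeq2 called 77. Cybb read 70.3, 58.8, 77.7 and 42.2 CPM in Isotype and 35, 29.1, 22.8 and 18.4 CPM in anti-TNF, with no overlap and a log2 difference of -1.22 ± 0.38 (edgeR adjusted p = 0.253). Ncf1 read 46.9, 28.8, 35.3 and 27 CPM and 18.9, 20.2, 14 and 12.6 CPM, also without overlap, with -1.04 ± 0.32 (edgeR adjusted p = 0.241). Ncf4 was the third gene without overlap: 81, 84, 93.2 and 82.5 CPM against 80.7, 67.3, 75.1 and 22 CPM. Over all genes 3.61% lay lower without overlap. Monocyte and macrophage markers summed to 1989.5 to 2622 CPM in Isotype and 963 to 1756 CPM in anti-TNF, also without overlap, and 0 of 11 were called.

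The other 6 genes overlapped between both antibody arms. Nos2 read 1031, 679.5, 1203 and 738 CPM in Isotype and 886, 635, 937 and 155 CPM in anti-TNF (-0.47 ± 0.47, edgeR adjusted p = 0.751). Duox2 read 747, 775, 783 and 463 CPM in anti-TNF, Duoxa2 237, 143, 244 and 84.7 CPM and Nox1 163, 149, 178 and 59.4 CPM. In each of these, replicate 4 lay below the others, and it was the lowest anti-TNF library for 9 of the 9 genes. The same library had the group's lowest monocyte and macrophage sum (963 CPM) and its highest surface colonocyte sum (5533 CPM). Without it 0 genes of the 9 were called, and Cybb stood at -1.09. In the table of the whole series the last pair of Isotype libraries (replicates 3, 4) and the first pair of anti-TNF ones (1, 2) have swapped names, and which naming is right for these 4 is not settled here. With the table's antibody names the Cybb difference was -0.19 and the Ncf1 difference -0.31, and without these 4 libraries they were -1.58 and -1.43, none called.

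The test of the difference between the MEKi 1 effect and the anti-TNF effect called 0 of the 9 genes by edgeR, 0 at an unadjusted p under 0.05 and 0 by DESeq2, where 0.0135% of all genes passed by edgeR. It was -0.40 ± 0.54 for Cybb, -0.55 ± 0.37 for Duoxa2 and 0.13 ± 0.45 for Ncf1 on the log2 scale (MEKi 1 minus anti-TNF).

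**Figure D2:**
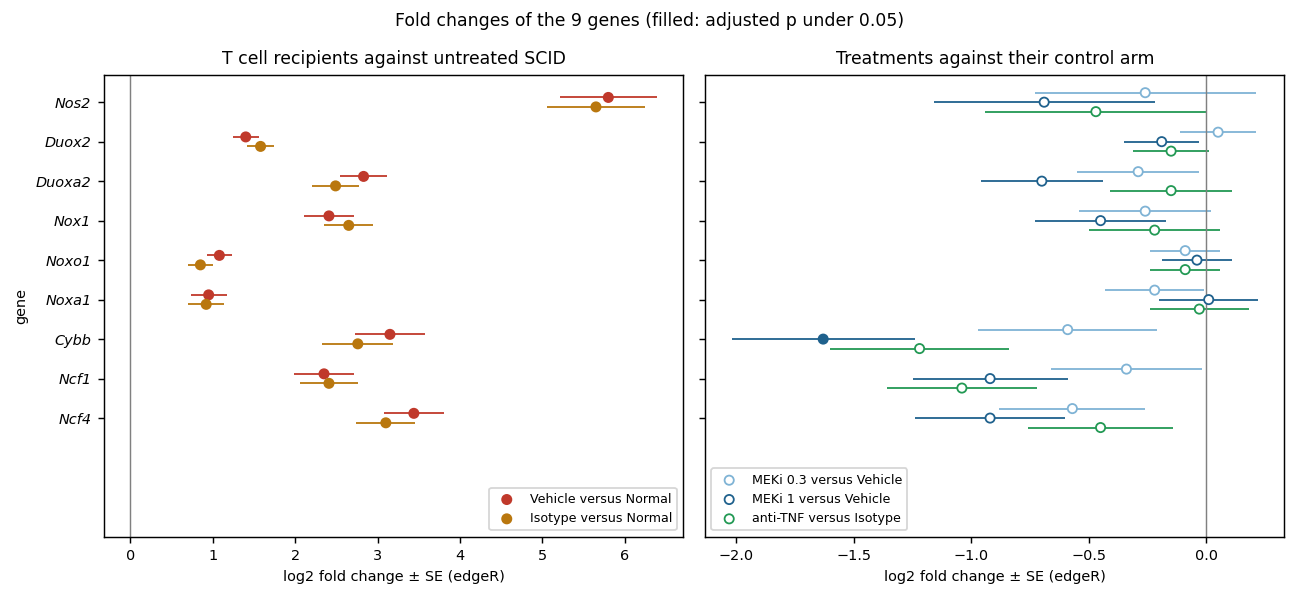
Fitted log2 fold changes ± SE (edgeR, n = 4 per group) of the 9 genes, at left for Vehicle and Isotype against Normal and at right for MEKi 0.3 and MEKi 1 against Vehicle and anti-TNF against Isotype; filled points have an adjusted p under 0.05. All points at left are filled, and Cybb in MEKi 1 at -1.63 is the only filled point at right.

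Treated colons stayed above untreated ones for these genes. Against the same Normal libraries, 9 of 9 genes were higher in MEKi 0.3, where 10.8% of all genes were, in MEKi 1, where 8.06% were, and in anti-TNF, where 12.5% were. All 9 lay above Normal without overlap in MEKi 0.3 (all genes 12.4%) and in anti-TNF (12.5%). Nos2 was 46.6-fold higher in MEKi 0.3, 34.4-fold in MEKi 1 and 36.4-fold in anti-TNF. Duox2 was 2.74-, 2.32- and 2.69-fold higher in the same order. Cybb was 5.87-fold higher in MEKi 0.3 but 2.86-fold in MEKi 1 and 2.9-fold in anti-TNF (edgeR adjusted p = 0.000242, 0.0248 and 0.0136). In MEKi 1, replicate 4 at 11.3 CPM of Cybb lay inside the Normal range, as did its 7.56 CPM of Ncf1, and the other 7 genes did not overlap Normal (9.25% of all genes lay higher without overlap). The Cybb call was lost without Normal replicate 1 (edgeR adjusted p = 0.0735) or 3 (0.07), or MEKi 1 replicate 2 (0.133), and the Ncf1 call without MEKi 1 replicate 2 (0.074). With no low-count filter Cybb had 0.0549 by edgeR's adjusted p; with a replicate block in a fit of only these groups Ncf1 was not called. In anti-TNF the Cybb call was lost without anti-TNF replicate 1 (edgeR adjusted p = 0.0505). Without the 4 antibody libraries named otherwise in the table, anti-TNF kept 6 of 9 calls by edgeR and lost Cybb (adjusted p = 0.206), Ncf1 (0.185) and Noxo1 (0.0521), while Isotype lost Noxa1 (0.0539). In MEKi 0.3 the Noxa1 call was lost without Normal replicate 4 (edgeR adjusted p = 0.0715) or MEKi 0.3 replicate 4 (0.0889).

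Ratios of counts within a library compare partners of 1 enzyme, and no difference passed after adjustment. With 4 libraries per group a ratio could pass only if many of the 20 ratio tests reached the smallest possible p. Counts of Duoxa2 per count of Duox2 were 0.138 ± 0.0238 in Normal and 0.37 ± 0.0376 in Vehicle, 2.71-fold higher on the log scale, with ranges of 0.105 to 0.162 and 0.316 to 0.399. In MEKi 1 the ratio was 0.259 ± 0.0418, a factor of 0.694 against Vehicle and without overlap. Isotype, without inhibitor, also lay wholly below Vehicle, at 0.258 ± 0.0417 (0.215 to 0.315). Noxo1 per Nox1 was 3.71 ± 0.518 in Normal and 1.47 ± 0.214 in Vehicle, and Noxa1 per Nox1 was 2.11 ± 0.26 and 0.756 ± 0.0714. Ncf1 per Cybb was 0.82 ± 0.575 in Normal, 0.401 ± 0.023 in Vehicle and 0.689 ± 0.175 in MEKi 1. Isotype, at 0.455 to 0.668, also lay wholly above Vehicle, at 0.368 to 0.421. Isotype against Vehicle was not among the ratio tests. From Normal to Vehicle neither Ncf1 per Cybb (p = 0.486) nor Ncf4 per Cybb (p = 0.543) reached an unadjusted p under 0.05 in the exact permutation test. The smallest p that a two-sided exact permutation test of 4 against 4 libraries allows is 0.0286. Duoxa2 per Duox2, Noxo1 per Nox1 and Noxa1 per Nox1 reached it in Vehicle against Normal. Duoxa2 per Duox2 and Ncf1 per Cybb reached it in MEKi 1 against Vehicle. After Benjamini-Hochberg adjustment over 20 ratio tests it is 0.114. The other 15 tests gave unadjusted p of 0.0857 or more. The ratios were chosen with values of these genes known, and a ratio within a library does not depend on its scaling.

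**Figure D3:**
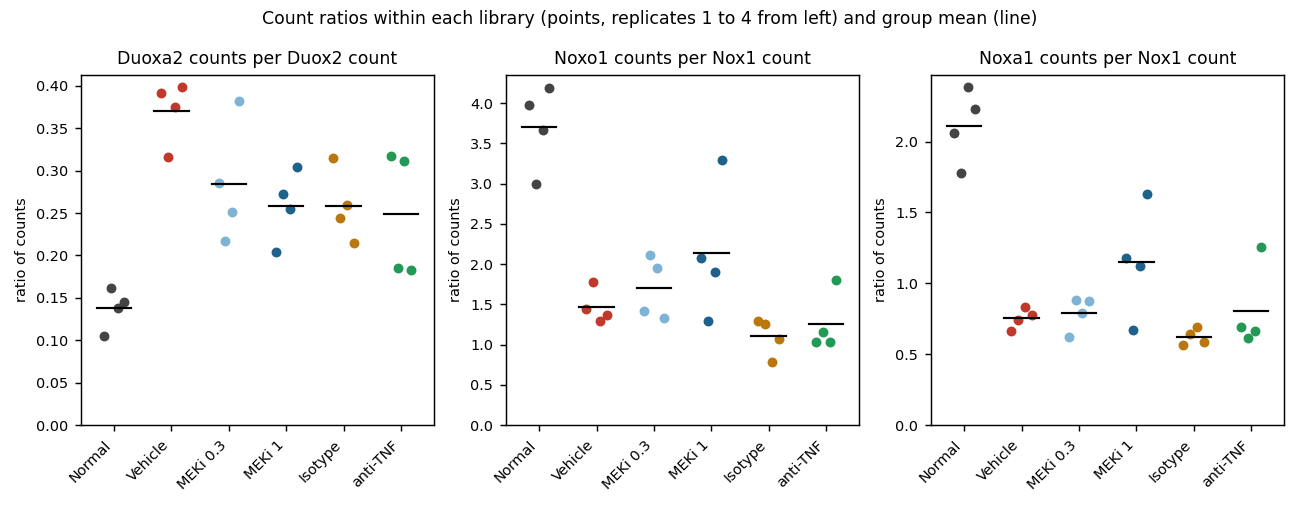
Ratios of counts within each library for Duoxa2 per Duox2, Noxo1 per Nox1 and Noxa1 per Nox1, by group (linear axes from 0; points are libraries, lines are means of 4). Normal libraries lie lowest for Duoxa2 per Duox2, at 0.105 to 0.162; for Noxa1 per Nox1 they lie highest, at 1.78 to 2.38.

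Over the 20 libraries of mice given T cells, the genes fell into different patterns. These correlations of log2 CPM are descriptions: the points share groups and library scaling. By Spearman's rho Cybb and Ncf1 were the closest pair (rho 0.91, Pearson r 0.90), while by Pearson's r Nos2 and Ncf4 were. Nos2 ran with Ncf4 (rho 0.81, r 0.92) and Duoxa2 (rho 0.80, r 0.91), and Duoxa2 with Ncf4 (rho 0.83, r 0.87). Ncf4 and Cybb had a rho of 0.74 (r 0.70). Duox2 and Duoxa2, the divergent neighbours, had a rho of 0.54 (r 0.66). Nox1 ran with Noxo1 at 0.24 (r 0.33) and with Noxa1 at 0.53 (r 0.55).

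Marker sums over the same libraries were set beside these patterns. Cybb followed the T cell (Spearman rho 0.90) and the monocyte and macrophage (0.87) sums, and Ncf1 had 0.83 and 0.76. Ncf4 was closest to the neutrophil sum (0.88), and Duoxa2 to the proliferating crypt cell sum (0.85) and the neutrophil sum (0.83). Ly6g gave most of the neutrophil sum in MEKi 1. The proliferating crypt cell list holds Mki67, Top2a, Lgr5, Ascl2 and Axin2. From Normal to Vehicle only Top2a and Mki67 of these were called higher, and the list median was -0.51 on the log2 scale. Which cells this sum follows was not tested. Nos2 ran against the surface colonocyte sum at -0.92, and had 0.80 with the proliferating crypt cell sum and 0.79 with the neutrophil sum. Ncf1 (-0.82), Cybb (-0.79), Ncf4 (-0.78), Duoxa2 (-0.76) and Nox1 (-0.62) also ran against the surface colonocyte sum. Duox2 (-0.54), Noxa1 (-0.33) and Noxo1 (-0.11) did so more weakly. That sum was 9151 ± 553 CPM in Normal and 2242 ± 216 CPM in Vehicle. Among surface colonocyte markers 5 of 6 fell and 1 rose from Normal to Vehicle. With the smooth muscle sum Nos2 had -0.72 and Ncf4 -0.62, and the other genes lay between -0.46 (Duoxa2) and -0.19 (Noxo1). Noxo1 followed none of these sums beyond 0.40 (colon epithelium). The part of changed cell numbers in the 9 genes was not tested.

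**Figure D4:**
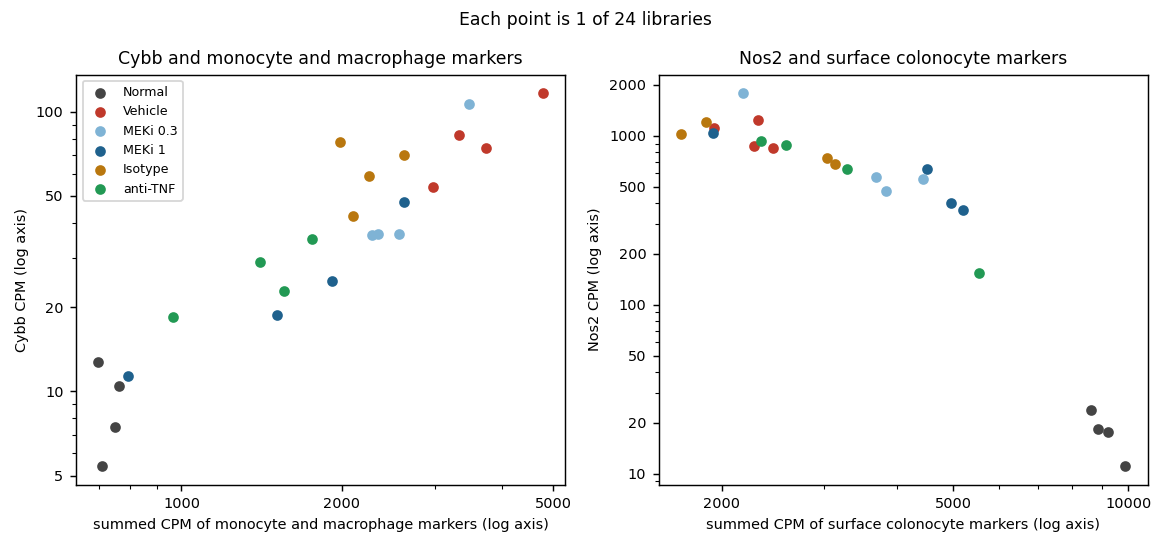
CPM of Cybb against the summed CPM of monocyte and macrophage markers, and of Nos2 against that of surface colonocyte markers, in 24 libraries (both axes log, colours are groups). Normal libraries sit at the low end for Cybb, at most 12.8 CPM, and at the high end of the surface colonocyte sum, 8625 to 9889 CPM, where Nos2 is lowest.

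The genes whose pattern over the 20 libraries was most like each of the 9 were taken from 11096 candidates. For Cybb they were Pilra, Msr1 and Igsf6 (Spearman rho 0.98 each), and for Ncf1 Mpeg1 (0.95), Plek and Cyth4 (0.94 each). For Nos2 they were Trim15 (0.94), Ncaph2 and Slc16a3 (0.93 each), and for Duoxa2 Ripk3, Blmh and H2afz (0.94 each). Ncf4 was most like Psmd4 (0.94), Acot9 and Eif2s1 (0.93 each). Duox2 was most like Tmem165 (0.87), Sc5d and Hk2 (0.85 each), and Nox1 like Slc28a3, Fads1 and Tufm (0.83 each). Noxo1 was most like Fis1 (0.84), Tor2a and Timm8b (0.81 each), and Noxa1 like Samm50 (0.85), Ndufa10 and Lpcat3 (0.83 each).

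Other genes of the same enzymes moved with the 9 in part. Of 10 other NADPH oxidase genes listed, 6 were tested and 4 rose in Vehicle, with a list median of 1.64 against 0.00 for all genes, of which 23.1% rose. Rac2, the small GTPase of the phagocyte oxidase, went from 10.9 ± 3.11 to 129 ± 22.4 CPM (log2 3.49 ± 0.28, edgeR adjusted p = 3.28e-09). Cyba, the membrane partner of both CYBB and NOX1, went from 49 ± 4.71 to 197 ± 16 CPM (edgeR adjusted p = 2.04e-07). Hvcn1, the proton channel of phagocytes, rose by 2.65 ± 0.32 on the log2 scale. Rac1 (0.28 ± 0.14) and Duox1 (0.32 ± 0.35) were not called there. Duox1 stood at 6.35 ± 2.88 CPM in Vehicle and rose in Isotype against Normal (log2 1.22 ± 0.33). In MEKi 1 against Vehicle, Rac2 (-1.24 ± 0.25, edgeR adjusted p = 0.0108) and Hvcn1 (-1.13 ± 0.29, 0.0227) fell, and the list median was -0.42. Nox4 (39 counts over all libraries), Duoxa1 (41) and Nox3 (0) were too low to test, and the symbol Cybc1 is not among the 43280.

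Genes around nitric oxide rose in part. Of 14 nitric oxide and arginine genes, 7 rose and 1 fell in Vehicle, with a list median of 0.52 (all genes 0.00, 23.1% higher, 46.4% changed). Ass1, which rebuilds arginine, rose by 0.94 ± 0.19 and Gch1, which starts synthesis of the cofactor tetrahydrobiopterin, by 1.13 ± 0.23 on the log2 scale. Arg1, an arginase that competes for arginine, stood at 3.6 ± 2.27 CPM in Vehicle against 0.476 ± 0.224 in Normal, and Arg2 rose by 1.83 ± 0.41. Slc7a2, an arginine transporter, rose from 1.06 ± 0.65 to 2.91 ± 1.6 CPM with overlapping groups (edgeR adjusted p = 0.0433). Nos1, the neuronal synthase, fell by 1.66 ± 0.41 (edgeR adjusted p = 0.00234). In MEKi 1 against Vehicle, where 4.51% of all genes fell, 3 of the 14 fell and 0 rose, among them Ass1 (-0.81 ± 0.19) and Arg1 (-4.10 ± 0.93, at 0.164 ± 0.206 CPM).

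Other oxidant-producing and peroxidase genes were called in both directions. Of 10 listed, 8 were tested, and 2 rose and 4 fell in Vehicle, with a median of -0.94 (23.1% of all genes rose and 46.4% changed). Lpo, lactoperoxidase, fell from 1154 ± 100.1 to 267 ± 22.3 CPM (log2 -2.15 ± 0.29, edgeR adjusted p = 8.87e-06). Maoa and Maob, monoamine oxidases that release hydrogen peroxide, also fell, with log2 fold changes of -1.45 ± 0.27 and -3.43 ± 0.71. Xdh, xanthine dehydrogenase, rose by 1.31 ± 0.21. In MEKi 1 against Vehicle, where 10.6% of all genes changed in either direction, 3 of the 8 rose and 0 fell. They were Lpo by 0.91 ± 0.29, Maoa by 0.88 ± 0.27 and Maob by 2.50 ± 0.71. Mpo, the neutrophil peroxidase, had 0 counts in Normal, 20 in Vehicle and 51 over all libraries, too few to test.

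Of 24 antioxidant genes, 12 rose and 3 fell in Vehicle, with a median of 0.33 (23.1% of all genes rose and 46.4% changed). Those that fell were Prdx6, a peroxiredoxin, from 3591 ± 795 to 834 ± 67.5 CPM, Cat, catalase, from 112 ± 13.3 to 53.5 ± 7.59 CPM, and Nfe2l2. Prdx6 and Cat were named after their values were seen. Gpx2, the glutathione peroxidase of gut epithelium, went from 421 ± 119 to 3042 ± 581 CPM (log2 2.81 ± 0.41, edgeR adjusted p = 2.45e-05), and Gpx1 rose by 0.89 ± 0.16. Hmox1, heme oxygenase, rose by 1.67 ± 0.43, and Sod2, the mitochondrial superoxide dismutase, was not called (0.26 ± 0.16). Nfe2l2, the factor that drives many of these genes, fell by 0.50 ± 0.14 on the log2 scale (edgeR adjusted p = 0.00467). In MEKi 1 against Vehicle, where 4.51% of all genes fell, 4 of the 24 fell and 0 rose. Sod3 at -1.29 ± 0.30 and Gclc at -0.51 ± 0.13 had the smallest p.

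Of 14 cytokines and regulators known to act on Nos2 or these oxidases, 9 were tested and 8 rose in Vehicle, with a median of 1.61 (23.1% of all genes rose). Irf1, an interferon-induced transcription factor, rose by 1.60 ± 0.17 on the log2 scale (edgeR adjusted p = 1.98e-07). Tnf went from 1.34 ± 1.28 to 37.9 ± 10.3 CPM and Il1b from 3.97 ± 0.993 to 115 ± 74.6 CPM. Ifng had 0 counts in Normal and 64 in Vehicle, at least 20.3-fold higher over a floor of 3 counts for the whole Normal group. Il17a (110 counts over all libraries) and Il22 (43) were too low to test and had 0 counts in Normal, 27 and 13 in Vehicle. In MEKi 1 against Vehicle, Il1b fell by 2.94 ± 0.57 (edgeR adjusted p = 0.0112), the only call of the 9, where 10.6% of all genes changed. Irf1 (-0.01 ± 0.16) was not called. In anti-TNF against Isotype 0 genes of all 5 lists were called by edgeR, where 0.0203% of all genes were.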

How the data were processed

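Ion Torrent poly(A) RNA-seq counts of distal colon from 24 mouse libraries were used. Per the labels' protocols, RNA was fragmented with RNase III and built with the Ion Total RNA-Seq Kit v2. The authors deposited raw whole-number counts per gene symbol, and per the submitters' processing notes the build is mm10. For the aligner, counter, annotation and strand handling: not given in the sources used here. CPM is the count scaled to a library total of 1000000.

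Groups follow the sample of each file, not the column names of the table of the whole series. Counts were fitted with edgeR 4.0.16 (R 4.3.3), quasi-likelihood and robust, over all 24 libraries with filterByExpr and TMM factors (0.91 to 1.074). Benjamini-Hochberg adjustment ran over 14773 genes in each of 11 comparisons, with a threshold of 0.05. SE is the absolute log2 fold change over the root of F, and fitted fold changes use a prior count of 0.125. Totals of 3052940 to 10587555 counts set the precision of low genes. Replicate libraries differed by more than sampling noise (chi-square per gene 5.38 to 59.9), so none was merged. The fit was tested on simulated data.

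Ratios were compared with exact permutation tests (scipy 1.17.1), and likeness used Spearman's rho of log2 CPM (prior count 2) over genes with a mean of at least 5 CPM. DESeq2 1.42.0, other filters, scalings, library names, replicate blocks and left-out libraries were tried. Deviations of same-numbered libraries from their group means correlated above a threshold of 0.1 in 4 of 4 pairs for MEKi 0.3 and Vehicle only (0.125 to 0.184). Isotype and anti-TNF came close, with 3 of 4 pairs above it (0.086 to 0.342). The same count was reached by Isotype and Vehicle (-0.395 to 0.165) and by MEKi 1 and MEKi 0.3 (-0.248 to 0.223). Whether the numbers pair libraries is not settled for any of these comparisons. The check rests on the counts, not on the labels. GENCODE M21 matched 39469 of 43280 symbols.

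The named genes are the 9 enzymes, fixed genes of 5 companion lists, the list members with the smallest p in a comparison, and the 3 genes most like each enzyme. Rac1 lies outside this rule. Prdx6 and Cat lie inside it, by MEKi 0.3 against Normal and by anti-TNF against Isotype. Rac1, Prdx6 and Cat were named with their values seen. Some genes the rule names are not reported here. The members and lists were chosen with earlier results of these data known.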

Additional observations from a re-analysis of the deposited data

Results flagged for a closer look

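Of 54 sets of 4 libraries (9 genes in 6 groups), 6 had a library far from the other 3 by Dixon's test at its 95% level, and chance gives about 1 in 20. MEKi 0.3 replicate 4 stood high for Nos2 at 1788 CPM, for Cybb at 106 CPM and for Ncf4 at 113 CPM. Its monocyte and macrophage marker sum, 3478 CPM, was also the highest of its group. Duox2 in anti-TNF replicate 4 stood low at 463 CPM, in the library with the lowest level of all 9 genes in that group. Noxa1 in MEKi 1 replicate 1 was low at 90.6 CPM, and Ncf4 in Normal replicate 4 was low at 6.79 CPM. Causes were not tested.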

How the results depend on the processing

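The 9 rises in Vehicle against Normal held under 9 alternatives and with each library left out (9 to 9 called), but not with all libraries as the table names them, an alternative chosen after seeing the data. Those names gave 0 calls in each comparison with Normal and turned Ncf1 to -0.05, Nox1 to -0.14 and Noxo1 to -0.16 in Vehicle against Normal. The count of 1 enzyme gene called in MEKi 1 against Vehicle became 3 with DESeq2, 2 with a filter of a mean of at least 5 CPM, 3 with only the groups compared, 3 with a replicate block in that fit, and 0 with all libraries as the table names them. It ranged from 0 to 3 with one library left out. Under the table's names the Cybb change reversed to 0.38. In anti-TNF against Isotype a replicate block in a fit of only these groups gave 2 calls (edgeR adjusted p = 0.0115 for Cybb and 0.0217 for Ncf1). Whether the numbers pair these libraries is not settled (3 of 4 pairs above 0.1, 0.086 to 0.342). With libraries left out, MEKi 0.3 against Vehicle gave 0 to 1 enzyme calls. Over all genes, calls went from 1 to 405 under that block and 92 with DESeq2 in MEKi 0.3 against Vehicle, and from 442 to between 4 and 789 in Isotype against Vehicle. They went from 1565 to between 0 and 2234 (43 to 2369 with one library left out) in MEKi 1 against Vehicle and from 3 to between 0 and 277 in anti-TNF against Isotype. The causes were not tested. Ncf1 in Normal and the cytokines are limited by low counts.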
